A study of Mus musculus with 2 samples.

Results

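The renin-angiotensin system genes are the 9 genes Agt, Ren1, Ace, Enpep, Agtr1a, Agtr1b, Agtr2, Mas1 and Atp6ap2. They were found by the gene name that the array's own annotation gives to each spot, leaving out control spots. This gave 10 probes, of which Mas1 had 2 and each other gene had 1, among 34763 genes on the array. Each of these probes was a single spot per array, so every value below is 1 spot in 1 dye. The samples came from mIMCD3, an established mouse epithelial line of the inner medullary collecting duct, which the labels describe as tubule epithelium. Cells given FGF23 at 10 ng/mL for 4 h were compared with unstimulated cells of the same line, both kept in medium with serum. FGF23 is a hormone made by bone that acts on the kidney. Both RNAs were hybridised together on each of 2 Agilent arrays, with FGF23 RNA in Cy3 and unstimulated RNA in Cy5 on array 1, and with the dyes exchanged on array 2. Separate cultures are not named in the labels, so the p-values measure spread between these arrays, which may be technical. The direction of every ratio rests on the dyes as labelled.

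The renin-angiotensin system is a cascade that raises blood pressure and sodium retention. Renin cuts the precursor angiotensinogen (Agt) to angiotensin I, angiotensin-converting enzyme (Ace) trims that to angiotensin II, and the aminopeptidase Enpep breaks angiotensin II down further. Angiotensin II acts through type 1 receptors, which mice encode in the genes Agtr1a and Agtr1b, and through the type 2 receptor Agtr2, while Mas1 is the receptor of a shorter, opposing peptide. Atp6ap2 encodes the prorenin receptor, which is also an accessory part of the vacuolar proton pump. In the kidney, angiotensinogen is known mainly from the proximal tubule and renin from juxtaglomerular cells, and the collecting duct is known as a further source of renin and of the prorenin receptor.

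The 60-base probes of Agt and Ren1 are shown because these genes sat at the edge of detection, so that what each spot could bind matters to how the values are read. The Agt probe lies on chromosome 8 from 127083142 to 127083201, minus strand, and the Ren1 probe on chromosome 1 from 135250782 to 135250841, plus strand, both on mm9 and both 5′ to 3′ with no base in capitals.
Agt probe: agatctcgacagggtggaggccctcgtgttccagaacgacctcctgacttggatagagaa
Ren1 probe: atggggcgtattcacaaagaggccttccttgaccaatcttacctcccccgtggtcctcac
Neither shares a run of 20 bases with a probe of another gene. That search compared probes with probes and not with transcripts, so it cannot show which RNAs a spot binds. The 2 Mas1 probes overlap by 35 bases on chromosome 17 and are therefore not independent readings. Where the probes lie in exons or UTRs was not analysed.

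Promoter sequences are shown for the member far above background, Atp6ap2, and for Agt and Ren1 at the edge of it, as examples of windows with many and with few CG dinucleotides. They are the 250 bases before the RefSeq gene start on GRCm38.p6, at chrX:12587509-12587758 (plus strand) for Atp6ap2, chr8:124569707-124569956 (minus strand) for Agt and chr1:133350424-133350673 (plus strand) for Ren1. Capitals mark CG dinucleotides in Atp6ap2 and the motif TATAAA in Agt and Ren1.
Atp6ap2 promoter: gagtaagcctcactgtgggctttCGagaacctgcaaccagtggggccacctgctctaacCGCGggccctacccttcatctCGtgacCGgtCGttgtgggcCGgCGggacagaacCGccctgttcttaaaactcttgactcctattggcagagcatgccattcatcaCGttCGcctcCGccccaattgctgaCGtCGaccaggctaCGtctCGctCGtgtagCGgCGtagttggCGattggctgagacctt
Agt promoter: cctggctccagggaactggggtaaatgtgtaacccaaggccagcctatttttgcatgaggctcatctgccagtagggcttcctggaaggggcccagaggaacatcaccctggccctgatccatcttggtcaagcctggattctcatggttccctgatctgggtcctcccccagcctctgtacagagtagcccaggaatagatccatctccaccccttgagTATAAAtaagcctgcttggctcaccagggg
Ren1 promoter: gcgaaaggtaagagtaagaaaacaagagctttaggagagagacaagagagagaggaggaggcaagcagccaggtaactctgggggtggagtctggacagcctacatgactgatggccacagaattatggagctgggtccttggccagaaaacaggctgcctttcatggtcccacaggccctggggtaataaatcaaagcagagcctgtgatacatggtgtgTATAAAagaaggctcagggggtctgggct
The Atp6ap2 window held 20 CG dinucleotides, more than 82.1% of the 32851 mouse promoters compared, whose median was 6. The Agt window held 0 and the Ren1 window 1. Ace, at the edge of detection like Agt and Ren1, has a window with 19 (more than 80.3% of promoters) and another with 1. The motif TATAAA began 30 bases before the start of Agt and 29 before that of Ren1. On either strand (TATAAA or TTTATA) it was present in 12.4% of all such windows and in 5 of the 9 windows of the 8 members that have one, namely those of Agt, Ren1, Agtr1b, Enpep and 1 of 2 of Ace. These matches describe the letters and were not set against the signals by a test.

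Depth on an array is brightness over background. The medians of the spot signals were 52.5 and 76.9 with FGF23 (Cy3 on array 1, Cy5 on array 2), against 69.9 and 54.5 in unstimulated cells (Cy5, Cy3), in linear scanner units with the background included. The median of the local background was 40 for Cy3 and 37 for Cy5. The scanner software marked 48.2% and 55.2% of spots as well above background with FGF23 and 54.2% and 48.7% in unstimulated cells, so Cy3 was the less sensitive dye on both arrays. The lowest signal marked in this way was 51.4 and 60.5 with FGF23 and 58.1 and 53.0 in unstimulated cells. The 308 negative control spots had medians between 35.2 and 37.2 in the 4 channels, and between 1 and 5 of them were marked. No spot was saturated.

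The first question was which parts of the system these cells express. A gene counted as detected where a probe was well above background on both arrays with FGF23, or on both in unstimulated cells. By that rule 5 of the 9 members were detected, namely Atp6ap2, Enpep, Agt, Ren1 and Ace, and 4 were not, namely the receptor genes Agtr1a, Agtr1b, Agtr2 and Mas1. Of all 34763 genes, 55.3% were detected, which is close to the share of the members. Under a rule that asks for all 4 channels, 2 members (Atp6ap2 and Enpep) and 52.6% of all genes were detected. With any 1 channel enough, the counts were 5 members and 63.6% of genes, and with the software's softer mark (a signal positive and significant against background) on both arrays they were 6 members and 71.2%. The prorenin receptor Atp6ap2 stood far above background, whereas the other detected members lay much nearer to the lowest signal marked. In whole-culture RNA, fewer cells that express a gene and less RNA per cell cannot be told apart. Brightness depends on each probe's own binding, so the members were not ranked against each other.

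**Figure D1:**
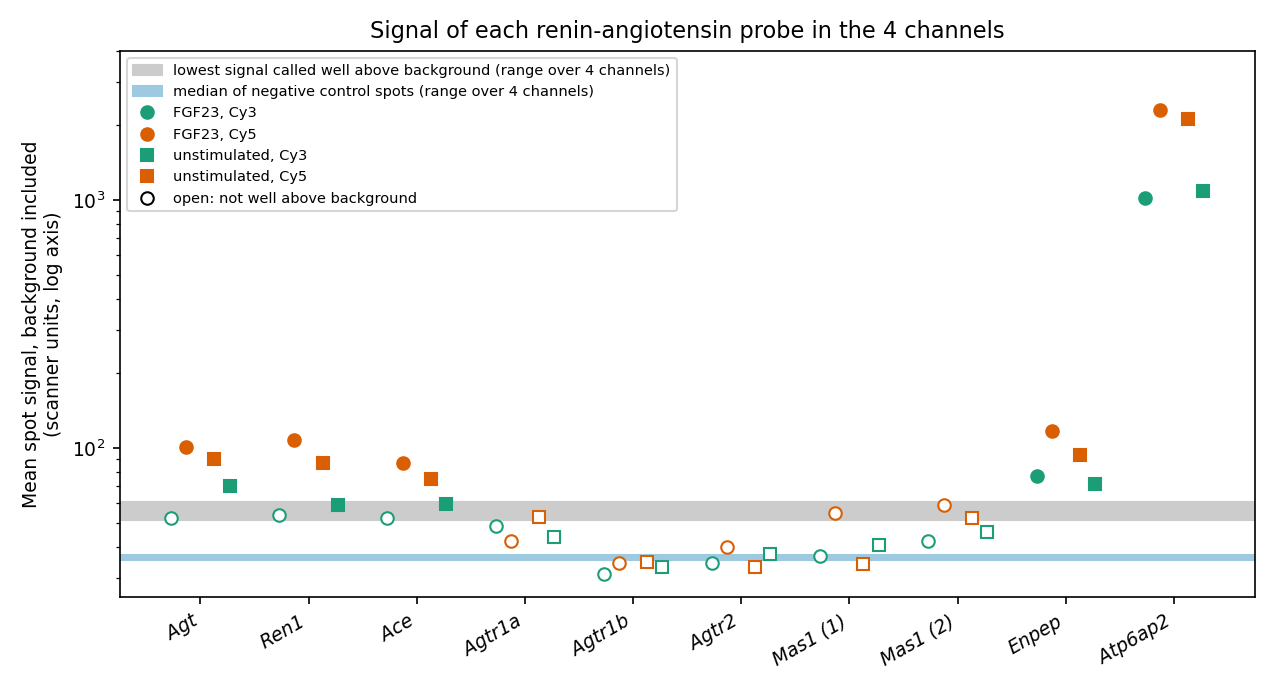
Mean spot signal (scanner units, log axis, background included) of each of the 10 probes, with FGF23 (circles) left of unstimulated (squares), Cy3 in green and Cy5 in orange, open symbols where the spot was not well above background, and bands for the lowest marked signal (grey) and the negative control medians (blue). Atp6ap2 lies between 1019 and 2312, Enpep, Agt, Ren1 and Ace lie between 52.0 and 117.5, and the receptor probes lie at or below 59.0.

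Among the substrate and enzymes, angiotensinogen was near the limit. Agt read 52.0 (Cy3, array 1) and 101.3 (Cy5, array 2) with FGF23, against 90.3 (Cy5, array 1) and 70.4 (Cy3, array 2) in unstimulated cells. It was well above background in 3 of the 4 channels, the exception being Cy3 on array 1. Within a dye, the FGF23 value was lower in Cy3 and higher in Cy5. Renin, the enzyme that starts the cascade, showed the same flags. Ren1 read 53.5 (Cy3, array 1) and 108.0 (Cy5, array 2) with FGF23, against 87.4 (Cy5, array 1) and 59.0 (Cy3, array 2) in unstimulated cells. Both Cy5 readings stood above both Cy3 readings, whichever RNA carried the dye, as in every other detected member. The converting enzyme gene Ace read 52.3 (Cy3, array 1) and 86.9 (Cy5, array 2) with FGF23, against 75.3 (Cy5, array 1) and 59.5 (Cy3, array 2) in unstimulated cells. It too missed the mark in Cy3 on array 1. Agt, Ren1 and Ace thus shared a flag pattern found in 2.64% of the 19221 genes detected, and in each of them the FGF23 level on array 1 is bounded by background. The part of the dye in that pattern was not tested.

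Enpep, the angiotensin II aminopeptidase, was well above background in all 4 channels, although its signal was low. It read 77.2 (Cy3, array 1) and 117.5 (Cy5, array 2) with FGF23, against 93.5 (Cy5, array 1) and 71.8 (Cy3, array 2) in unstimulated cells. Within each dye the FGF23 reading was the higher one. Its probe lies on chromosome 3 from 128972910 to 128972969 (mm9). Atp6ap2, on chromosome X from 12193624 to 12193683 (mm9), read 1019 (Cy3, array 1) and 2312 (Cy5, array 2) with FGF23, against 2114 (Cy5, array 1) and 1089 (Cy3, array 2) in unstimulated cells. Its readings paired by dye, and every one of the negative control spots was dimmer.

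No receptor probe was well above background in any channel. The type 1 receptor gene Agtr1a read 48.3 and 42.2 with FGF23 (Cy3, Cy5), against 52.7 and 43.9 in unstimulated cells (Cy5, Cy3). The softer mark was set for it in both channels of array 1 and in neither of array 2. The other type 1 receptor gene, Agtr1b, read 31.1 and 34.3 with FGF23 and 34.6 and 33.1 in unstimulated cells, which is below the negative control median in all 4 channels. The type 2 receptor gene Agtr2 read 34.3 and 39.8 with FGF23, against 33.0 and 37.3 in unstimulated cells. Its readings lay among those of the negative controls, of which between 19.8% and 75.3% were dimmer. For Mas1, 1 probe read 36.6 and 54.9 with FGF23, against 34.2 and 40.8 in unstimulated cells, and the overlapping probe read 42.0 and 59.0 with FGF23, against 52.4 and 45.9. The overlapping probe carried the softer mark in 3 of 4 channels. These readings give bounds and not levels, and they do not show that the receptors are absent.

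The second question was whether FGF23 changed any member. Across all 19221 genes detected, 9 passed limma's test (0.0468%, all higher with FGF23), and 0 of the 5 detected members did. At an unadjusted p under 0.05 there was 1 member, Agt, against 3.91% of all genes. The median log2 ratio of FGF23 over unstimulated was -0.0029 over the 5 members and -0.00064 over all genes. Ratios were spread over genes with an SD of 0.15 on array 1 and 0.13 on array 2, and 53.8% of genes had opposite signs on the arrays. Across genes the ratios of the arrays had a Pearson r of -0.12, so the arrays did not rank the genes alike. The part of the dye in this was not tested.

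Atp6ap2 had log2 ratios of -0.0045 on array 1 and -0.0024 on array 2 (mean -0.0035 ± 0.0015, SD, n = 2 arrays), a ratio of 1.0 with a 95% interval from 0.88 to 1.13 in limma's fit. The interval rests mostly on the spread shared over genes. The closeness of the arrays rests on a dye correction that follows intensity: with median centring alone the ratios were -0.67 and 0.64 (mean -0.013 ± 0.92), the widest gap among the 5 detected members. A change within the interval could not be told from 0 with 2 arrays.

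Agt had log2 ratios of -0.24 and -0.14 (mean -0.19 ± 0.069, SD, n = 2 arrays), that is 0.88 times the unstimulated level with an interval from 0.77 to 1.0. Its unadjusted p in limma was 0.0487 and its adjusted p 1.0, so the lower reading on 2 of 2 arrays did not pass. The scanner software's own ratio, as deposited by the authors, gave larger values of -0.61 and -0.33 (mean -0.47), with its p at 0.0771 on array 1 and 0.227 on array 2. The main values add an offset of 50 before the logarithm, which by construction pulls the ratios of dim spots towards 0. With median centring the ratios were -0.28 on array 1 and -0.033 on array 2, so the size of the lower reading on array 2 depended on the normalization. Over all processing alternatives the mean of Agt ran from -0.47 to -0.16 and the adjusted p from 0.462 to 1.0.

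Enpep had log2 ratios of 0.24 and 0.044 (mean 0.14 ± 0.14, SD, n = 2 arrays), 1.1 times the unstimulated level with an interval from 0.96 to 1.26 and an adjusted p of 1.0 in limma. The mean was no larger than the spread of the arrays. The interval holds for the main values, whose added offset pulls the ratios of dim spots towards 0. With a normexp offset of 0 the log2 ratios of Enpep were 0.46 on array 1 and 0.076 on array 2 (mean 0.27 ± 0.27). The deposited ratio was 0.66 on array 1 and 0.048 on array 2, with the software's p at 0.0174 and 0.856. With median centring the ratios were 0.095 on array 1 and 0.18 on array 2 (mean 0.14), so which array gave the higher ratio depended on the normalization.

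Ren1 had log2 ratios of -0.20 on array 1 and 0.19 on array 2 (mean -0.0029 ± 0.27, SD, n = 2 arrays; limma adjusted p = 1.0). The arrays gave opposite signs, as did 53.8% of all genes. Before turning, the deposited Cy5 over Cy3 ratio was 0.66 and 0.65 on the log2 scale, with the software's p at 0.0726 and 0.0457. After dye normalization Cy5 was thus the brighter channel on both arrays, whichever RNA it carried. The part of the dye was not tested, and the Cy3 spot on array 1 was not well above background. The 95% interval of the ratio ran from 0.86 to 1.16. It holds for the main values, whose added offset pulls the ratios of dim spots towards 0. With a normexp offset of 0 the log2 ratios of Ren1 were -0.48 on array 1 and 0.39 on array 2 (SD 0.62). Larger changes are therefore not excluded by the interval. Mice of some strains carry a second renin gene, Ren2, whose probe is different in sequence and is no member here. Ren2 read 62.7 and 112.7 with FGF23, against 107.8 and 75.0 in unstimulated cells, well above background in all 4 channels. Its log2 ratio was -0.079 ± 0.056 (SD, n = 2 arrays; limma adjusted p = 1.0). No mm9 position was found for the Ren2 probe in the array annotation, unlike for the probes of the members. Whether these cells carry Ren2 was not tested. Whether the Ren1 spot also binds Ren2 RNA, or the Ren2 spot Ren1 RNA, was not tested either.

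Ace had log2 ratios of 0.0065 and 0.029 (mean 0.018 ± 0.016, SD, n = 2 arrays; limma adjusted p = 1.0), with an interval from 0.89 to 1.15 times the unstimulated level. The deposited ratio had the other sign, at -0.19 and -0.049, with the software's p at 0.624 and 0.882. The interval of Ace, too, holds for the main values with their added offset. With a normexp offset of 0 its log2 ratios were 0.0074 on array 1 and 0.07 on array 2. For the receptor genes no spot was well above background with either RNA, so no fold is given.

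**Figure D2:**
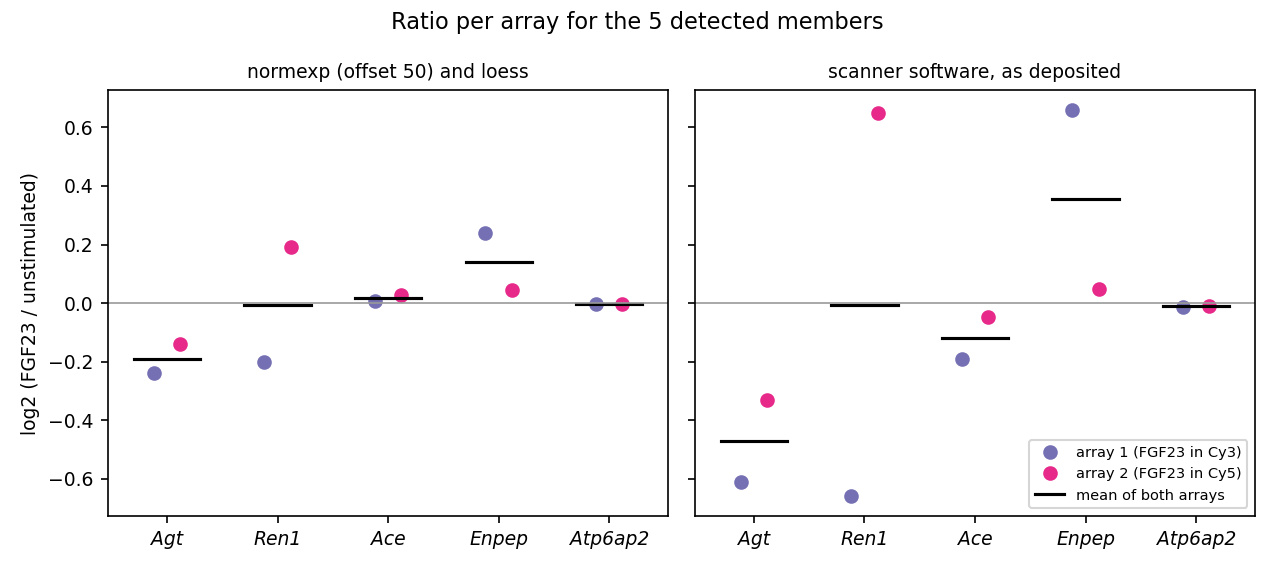
Log2 ratio of FGF23 over unstimulated for the 5 detected members on array 1 (purple) and array 2 (pink), with the mean of both as a bar, from normexp and loess on the left and from the deposited ratio on the right. Atp6ap2 stays at 0 on both, Agt lies below 0 on both arrays in each panel, and Ren1 changes sign between the arrays.

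Genes that handle the same peptides were examined next, from lists chosen for their role. Of 14 other peptidases that can make or break down angiotensin peptides, 8 were detected (57.1%), a share close to the 55.3% of all genes. In limma's test 0 passed in either direction, and the median log2 ratio was -0.025. The detected peptidases were mainly intracellular or widely expressed enzymes. Mme, the membrane peptidase neprilysin, which can turn angiotensin I into a shorter peptide, had 0.086 and 0.14 (mean 0.11 ± 0.036), and its other probe averaged 0.10. The oligopeptidases Prep and Thop1 averaged -0.085 ± 0.044 and -0.063 ± 0.062, and the aminopeptidase Rnpep averaged -0.041 ± 0.10 (SD, n = 2 arrays each). Anpep, an aminopeptidase of the proximal tubule brush border, was not detected, at 43.6 to 65.1 with FGF23 and 51.9 to 59.7 in unstimulated cells. The mast cell proteases Cma1, Mcpt4 and Cpa3 and the neutrophil protease Ctsg were also not well above background in any channel.

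Of 10 other receptors and signalling partners, 8 were detected (80.0%, against 55.3% of all genes) and 0 passed. Agtrap, a protein that binds the type 1 receptor and promotes its uptake, had 0.087 and 0.16 (mean 0.12 ± 0.054), and the arrestin gene Arrb1 had -0.024 and 0.26. The apelin gene Apln averaged -0.092 ± 0.087 and Mtus1, whose product binds the type 2 receptor, 0.10 ± 0.079 (SD, n = 2 arrays each). Lnpep, Arrb2, Gnaq and Gna11 were also well above background in all 4 channels. The receptor genes Mrgprd and Aplnr, like the 4 receptor members, were not detected by the rule, although Aplnr was well above background in Cy5 on both arrays. Of 6 kallikrein-kinin genes, whose peptide bradykinin Ace also cleaves, 2 were detected (33.3%). The bradykinin receptor gene Bdkrb2 averaged -0.025 ± 0.10 and the carboxypeptidase gene Cpn1 -0.026 ± 0.18, with opposite signs on the arrays for each.

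The aldosterone axis, through which angiotensin II raises sodium uptake, had 0 of 4 genes detected by the rule, against 55.3% of all genes. The list includes Cyp11b1, an adrenal steroid enzyme gene, which was well above background in both dyes of array 1 only. The count does not show that these cells lack a response to aldosterone. Hsd11b2, which shields the mineralocorticoid receptor from glucocorticoids and marks principal cells, read 39.7 to 55.8 with FGF23 and 44.9 to 46.0 in unstimulated cells. The receptor gene Nr3c2 ranged from 45.8 to 101.1 with FGF23 and from 47.0 to 64.2 in unstimulated cells, and was well above background in Cy5 on both arrays and in Cy3 on neither. It therefore missed the rule through the dimmer dye.

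**Figure D3:**
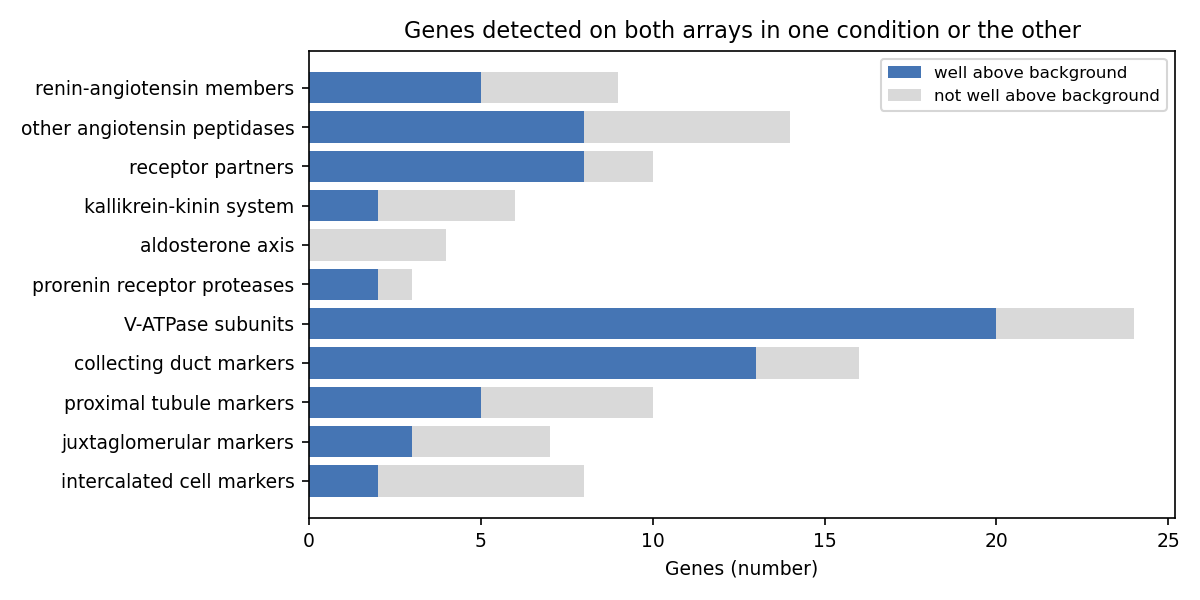
Number of genes of each list detected with FGF23, in unstimulated cells or in both (blue) and that were not (grey). Among the members 5 of 9 were detected, against 20 of 24 V-ATPase subunits, 0 of 4 aldosterone genes and 55.3% of all genes on the array.

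Atp6ap2 was set beside the genes it works with. The vacuolar proton pump (V-ATPase) acidifies endosomes and lysosomes, and in acid-secreting cells it also moves protons across the cell surface. Of its 24 subunit genes, 20 were detected, and 0 passed limma's test, with a median log2 ratio of 0.0033, at -0.021 on array 1 and 0.042 on array 2. On both arrays 3 were above 0 and 4 below, while 13 had opposite signs, which 53.8% of all tested genes also had. The farthest from 0 was Atp6v0a4, a subunit known from acid-secreting intercalated cells, with -0.24 and -0.36 (mean -0.30 ± 0.087, SD, n = 2 arrays). It had an unadjusted p of 0.00426 and an adjusted p of 0.659. The related subunit gene Tcirg1 had -0.13 and -0.19 (mean -0.16 ± 0.042) and Atp6v1d had 0.12 and 0.091 (mean 0.11 ± 0.022). Atp6v1g2 had -0.40 and 0.11, and another probe of it averaged 0.056. The subunit genes Atp6v1b1, Atp6v1g3 and Atp6v0d2, which mark intercalated cells, were not well above background in any channel. Of 3 proteases known to cut the prorenin receptor, Furin averaged 0.071 ± 0.072 and Mbtps1 0.14 ± 0.17 (another probe 0.032), and Adam19 was not detected.

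**Figure D4:**
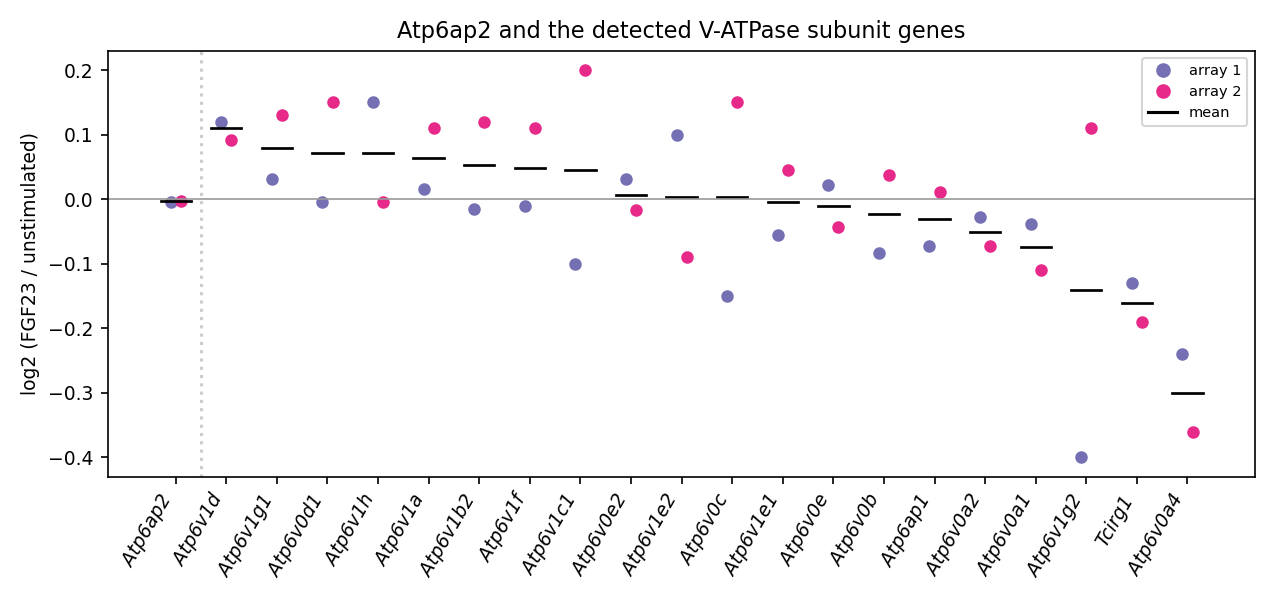
Log2 ratio of FGF23 over unstimulated on array 1 (purple) and array 2 (pink) for Atp6ap2, left of the dotted line, and for the 20 detected V-ATPase subunit genes in order of their mean (bar). Atp6ap2 lies at 0 on both arrays and Atp6v0a4 is lowest, at -0.24 and -0.36.

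Markers of cells that could carry parts of the system were counted by the same rule, which 55.3% of all genes met. Collecting duct and ureteric markers were detected for 13 of 16 genes (81.2%), among them Krt8, Krt18, Hoxb7, Pax8 and Aqp2. The vasopressin receptor gene Avpr2 and Hsd11b2 were not well above background in any channel, and the water channel gene Aqp3 was well above background in Cy5 alone. Proximal tubule markers were detected for 5 of 10 genes, a share near that of all genes, including Lrp2 and Cubn, while Slc34a1, Slc5a2, Slc22a8, Hnf4a and Slc5a12 were not. Only 1 of 3 Lrp2 probes and 1 of 2 Cubn probes met the rule. Juxtaglomerular and vascular smooth muscle markers were detected for 3 of 7 (42.9%), namely Foxd1, Cnn1 and Smtn, while Akr1b7, Myh11, Pdgfrb and Rgs5 lay between 32.8 and 47.0 in every channel. Of 8 intercalated cell markers 2 were detected, namely Slc4a1 and Slc26a4, each well above background in all 4 channels. None of the marker genes passed limma's test, and their part in the signals of Agt and Ren1 was not tested.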

How the data were processed

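Total RNA of mIMCD3 cells was measured on 2 two-colour Agilent arrays on 1 slide with 1 scan time. The authors deposited scanner output, which the file headers credit to Feature Extraction 11.5.1.1 with probe positions on mm9. It gives mean and background intensity per spot and dye in linear units, which the authors deposited without normalization. The deposited log10 ratio of Cy5 over Cy3 was background-subtracted and dye-normalized by that software, per the file headers. The deposited p-value comes from its error model.

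Here, mean signals were corrected with normexp (offset 50) on the background median and normalized by loess within arrays in limma 3.58.1 (R 4.3.3). Ratios were turned to FGF23 over unstimulated, without outlier or control spots. A well-above-background mark requires a signal above 13 SD of the background. Of 55681 probes, 26943 passed the detection rule, giving 19221 genes, each by its brightest probe. Names were looked up through RefSeq (GRCm38.p6), which matched 28026 probes and changed the name of 1651. Ratios of all genes were tested together by lmFit and eBayes in limma, with Benjamini-Hochberg adjustment at 0.05. It had 1 residual degree of freedom beside 12 from the shared spread, and it was tested on simulated data. No dye term was fitted.

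Every member is named. Of each other list, up to 4 detected genes farthest from 0 are named with ratios, and some undetected ones with signals; 1 listed gene is not reported here. The members and lists were chosen with earlier results of these data known.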

Additional observations from a re-analysis of the deposited data

How the results depend on the processing

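The count of members past the test was 0 with every alternative run. The count of all genes past it was 9, against 0 with Agilent's processed log ratio, 0 with median centring, 5 with a normexp offset of 0, 17 over averaged probes, 23 with each kept probe by itself and 79 when the prior was robust and followed intensity. The cause of these differences was not tested. Members detected numbered 2 where all 4 channels had to be well above background (Atp6ap2 and Enpep), 5 where 1 channel sufficed and 6 with the softer mark, which adds Mas1. Without a filter on dim probes the receptor genes entered the fit and 0 of them passed. Ren1 was at 0.025 with median centring and Ace at -0.12 with Agilent's log ratio, signs opposite to the main values, and neither had passed. Of the other 45 values of single members, Ren1 on array 2 alone, at 0.19, also had the opposite sign, and none crossed the threshold. On 1 array alone there is no residual degree of freedom and so no test. Of the list medians, 14 moved beyond the SD between arrays and 86 did not. The ratios tested already pair both RNAs within an array. No paired analysis was possible beyond that, because the labels give no replicate number and no further block. Signal over background limits Agt, Ren1, Ace and Enpep. Spots that the scanner software marked as outliers were left out, but with 1 spot each no replicate spot could reveal another fault.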

Other observations

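Detection by dye was uneven among the dim genes around this system. Over the array, 1697 of 55681 probes (3.05%) were well above background in Cy5 on both arrays and in Cy3 on neither, against 21 (0.0377%) the other way round. Besides Nr3c2, the genes Aplnr, the apelin receptor, Aqp3, Slc34a1 and the intercalated cell factor Foxi1 had that Cy5 pattern. Foxi1 ranged from 45.5 to 88.8 with FGF23 and from 50.8 to 84.4 in unstimulated cells. Cyp11b1, an adrenal steroid enzyme gene, was well above background in both dyes of array 1 and in neither of array 2, at 44.5 to 64.0 with FGF23 and 43.3 to 79.4 in unstimulated cells.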
